A study of Mus musculus with 6 samples.

Results

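The Wnt pathway genes described here were taken from the count table by symbol: every Wnt ligand gene, every Frizzled (Fzd) receptor gene, the Dkk and Sfrp genes of secreted inhibitors, and 19 further genes of co-receptors, the β-catenin destruction complex, nuclear factors and feedback regulators. The rule matched 56 of the 23420 genes in the table. The cells were eEnd2, an endothelial line of embryonic mouse origin, stably transfected with a chimera of human Integrin-β1A and GFP under a short human β-actin promoter with a matrix attachment region. Both groups carried the chimera, and neither was treated. The WT group expressed the wildtype chimera (β1-WT-GFP). The K794Q group expressed a mutant with glutamine in place of lysine in the cytoplasmic tail, which mimics acetylation (β1-K794Q-GFP). GFP positive cells were sorted, grown to confluence, and RNA of 3 cultures (A to C) of each group was sequenced with ribosomal RNA depleted. Whether a culture came from a population sorted for low or for high GFP is not given in the sources used here. Nothing in the labels says that the cultures of a group came from separate transfections, so p-values measure the spread between these cultures only.

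Wnt proteins are secreted lipid-modified ligands that bind Frizzled receptors on neighbouring cells. With the co-receptors Lrp5 or Lrp6 they stop a destruction complex of Axin, Apc and kinases from marking β-catenin for degradation, and β-catenin then acts with TCF/LEF factors on target genes, several of which (Axin2, Nkd1, Rnf43, Znrf3) encode brakes on the pathway. Other Wnt proteins, Wnt5a among them, mostly act without β-catenin through receptors such as Ror2 and Ryk. In endothelium the pathway is best known for the growth of brain and retinal vessels, where Fzd4, Gpr124 and Reck take part, and for the blood-brain barrier.

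The libraries held between 9589826 and 15287191 counts. Values per culture are given below as CPM (counts per 1000000, with library totals scaled by TMM normalization), and 3 counts, the most that a count of 0 allows, were between 0.209 and 0.300 CPM. That limit covers counting error only. All 12 endothelial markers listed (Pecam1, Cdh5 and Kdr among them) were expressed at a level that could be tested, and 0 of them passed the thresholds or had p of at most 0.05 by edgeR or by DESeq2. The cultures differed in how alike they were. WT A and WT B lay beyond counting noise from each other (chi-square per degree of freedom of 10.2) but had 23 genes at least 2-fold apart on the scale of CPM + 1, while WT C had 2478 genes apart from WT A and 2351 apart from WT B, and the K794Q cultures had between 796 and 2359 genes apart from each other. WT C is therefore followed gene by gene below.

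Of the 56 Wnt pathway genes, 13 had no count in any culture, 20 had counts under the filter for the test, and 23 were tested within one edgeR fit of 11608 genes. A gene passed when it was at least 2-fold apart between the groups with an unadjusted p of at most 0.05 in the quasi-likelihood F-test, the thresholds of the study's methods. By this rule 4 of the 23 differed, or 17.4%, where 5.19% of all tested genes did. The ligand Wnt5a and the receptor Fzd2 were lower in K794Q cells, and the feedback regulators Nkd2 and Axin2 were higher. Wnt5a (2, 0 and 10 counts in K794Q cultures) and Nkd2 (3, 1 and 9 counts in WT cultures) passed the filter only through their higher group. The share of 17.4% is therefore not independent of the filter. With at least 10 counts in every culture 1 of 17 passed (Fzd2), where 425 of 10541 genes did. Over all tested genes 3.48% were called higher and 1.71% lower. After Benjamini-Hochberg adjustment over all tested genes 0 of the 23 passed in edgeR's quasi-likelihood test, with a smallest adjusted p of 0.111, and 0.181% of all genes did. DESeq2 and edgeR's likelihood ratio test each gave Wnt5a and Nkd2 an adjusted p under 0.05, and without adjustment the 3 tools counted 4 (quasi-likelihood), 6 (DESeq2) and 4 (likelihood ratio) of these genes at p of at most 0.05. The median log2 fold change of the 23 was 0.074, beside -0.015 for all tested genes.

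**Figure D1:**
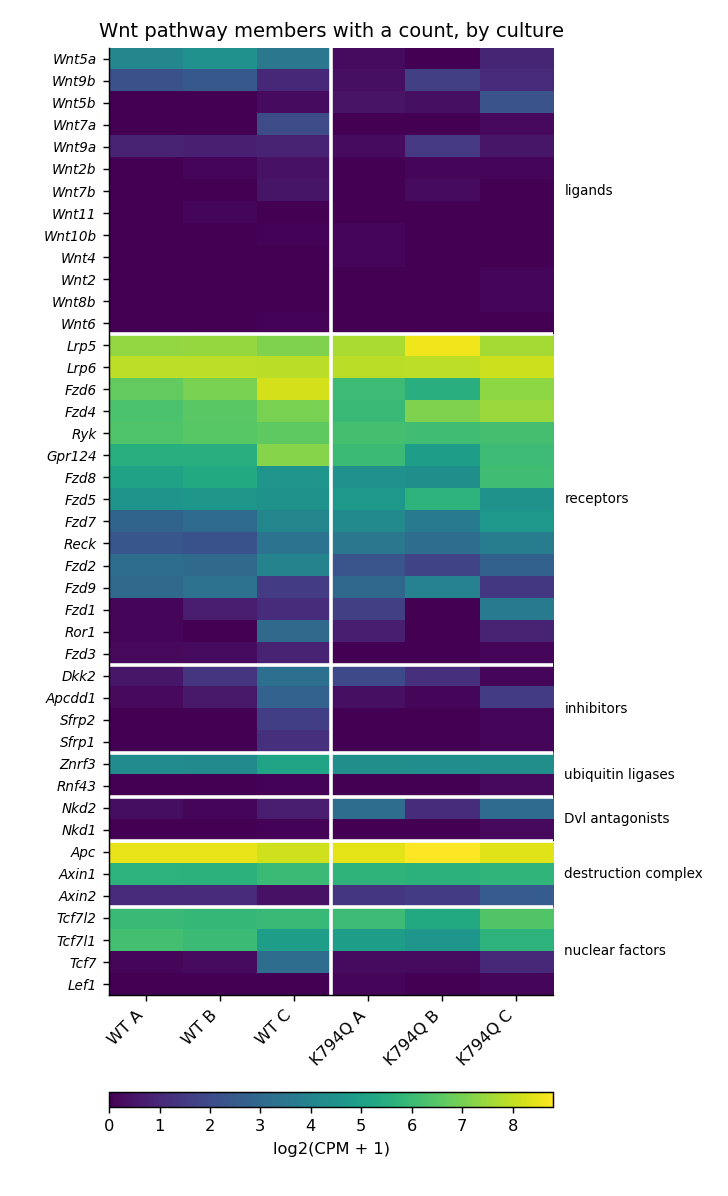
Level in each of the 6 cultures of the 43 Wnt pathway genes that had at least 1 count, as log2(CPM + 1) from dark (0) to yellow, grouped by role. Lrp5, Lrp6, Fzd6, Fzd4 and Apc are bright in every culture, most ligands and inhibitors are dark, and Tcf7, Ror1, Sfrp2 and Wnt7a are brightest in WT C.

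Most ligand genes were at or near 0, and the clearest difference between the groups was the low level of Wnt5a in K794Q cells. Of 19 Wnt genes, 6 had no count (Wnt1, Wnt3, Wnt3a, Wnt8a, Wnt10a and Wnt16), and 2, Wnt5a and Wnt9b, were tested. Wnt5a, which encodes a ligand of the β-catenin-independent branch and lies at chr14:28504750-28527448 (GRCm38), was at 15.7, 20.9 and 10.4 CPM in WT cultures A, B and C and at 0.193, 0 and 0.860 CPM in K794Q cultures A, B and C. Every WT culture lay far above every K794Q culture. The means were 15.7 ± 5.26 CPM and 0.351 ± 0.451 CPM (SD, n = 3 each), and the log2 fold change was -5.39 (SE 0.97, edgeR adjusted p = 0.111). The K794Q cultures held 12 counts of Wnt5a in all against 538 in the WT cultures, a WT to K794Q ratio of 40.3 with a 95% exact binomial interval of 22.9 to 78.4 that covers counting error only. The fall passed both thresholds without any 1 of the 6 cultures, with log2 fold changes between -7.18 and -4.83. The 24 nearest tested genes on the chromosome had a median log2 fold change of 0.066.

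Wnt5b, the closest relative of Wnt5a, had the opposite pattern at a much lower level. Its counts in cultures A, B and C were 0, 0 and 3 in WT cells and 4, 3 and 44 in K794Q cells, or at most 0.209 CPM against 0.385, 0.296 and 3.78 CPM. The groups did not overlap, but 44 of the 51 K794Q counts came from culture C. The K794Q to WT ratio of the summed counts was 18.9 with a counting interval of 6.12 to 94.8. Wnt5b had too few counts for the filter, and in the fit without a filter its log2 fold change was 4.07 (SE 1.52, edgeR adjusted p = 0.471).

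Wnt9b was at 3.50, 4.40 and 0.975 CPM in WT cells and at 0.289, 2.17 and 1.12 CPM in K794Q cells, and the groups overlapped (log2 fold change -1.30, SE 0.84, adjusted p = 0.708). Wnt9a, its paralog, held between 2 and 18 counts in every culture, with summed counts of 28 in WT and 25 in K794Q cells. Wnt7a, a ligand that acts on brain endothelium through Gpr124 and Reck, was seen in 2 cultures, with 44 counts in WT C and 2 in K794Q C. The remaining 8 Wnt genes with any count (Wnt2, Wnt2b, Wnt4, Wnt6, Wnt7b, Wnt8b, Wnt10b and Wnt11) had at most 6 counts in a culture.

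**Figure D2:**
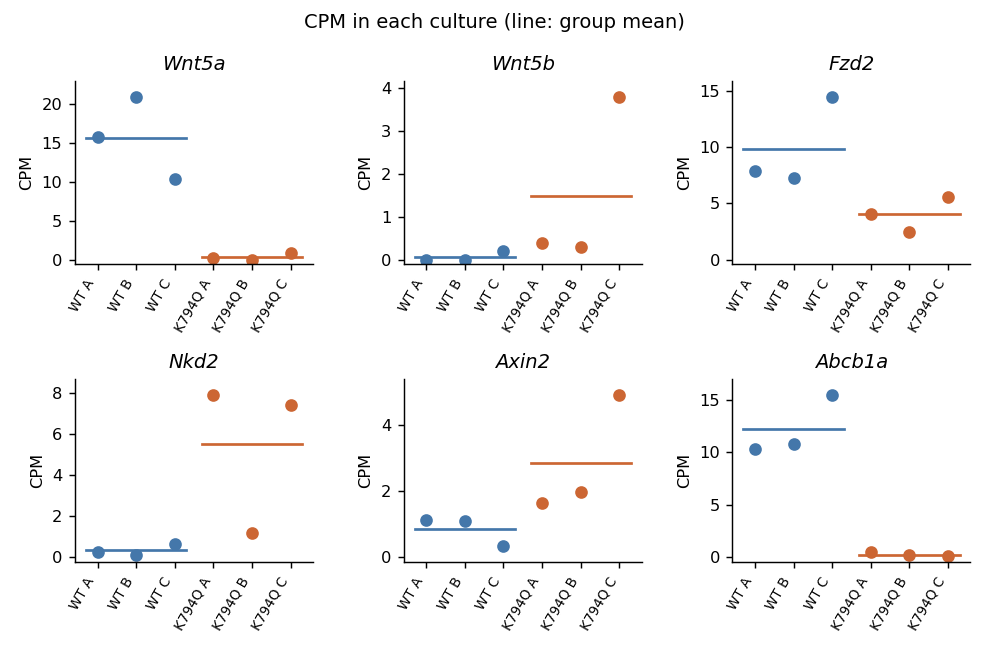
CPM in each culture (points, blue for WT and orange for K794Q) with the group mean as a line, for Wnt5a, Wnt5b, Fzd2, Nkd2, Axin2 and the further pathway gene Abcb1a. Wnt5a and Abcb1a sit near 0 in all K794Q cultures, while in Wnt5b and Axin2 K794Q C stands above the other K794Q cultures.

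Axin2 is a known target of β-catenin, and the 250 bases before the starts of the genes higher in K794Q cells were read for the TCF/LEF motif. Wnt5b, Axin2 and Nkd2, which have an entry in the RefSeq promoter table (GRCm38.p6), are shown here 5′ to 3′ on the strand of the gene, for Wnt5b at chr6:119449387-119449636 (minus strand, the only one of its 3 starts with a match), for Axin2 at chr11:108920099-108920348 (plus strand) and for Nkd2 at chr13:73847632-73847881 (minus strand). Capitals mark a match to CTTTGAA or CTTTGAT, which were searched on both strands and cannot match at the same bases.
Wnt5b: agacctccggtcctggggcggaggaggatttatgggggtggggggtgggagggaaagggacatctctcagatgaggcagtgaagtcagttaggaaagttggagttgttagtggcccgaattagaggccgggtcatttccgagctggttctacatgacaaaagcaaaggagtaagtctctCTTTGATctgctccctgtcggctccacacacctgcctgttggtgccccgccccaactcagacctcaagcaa
Axin2: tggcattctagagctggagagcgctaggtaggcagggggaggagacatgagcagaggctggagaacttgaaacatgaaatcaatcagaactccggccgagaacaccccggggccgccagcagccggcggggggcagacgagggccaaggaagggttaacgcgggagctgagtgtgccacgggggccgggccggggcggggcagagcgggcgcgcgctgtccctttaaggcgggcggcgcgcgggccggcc
Nkd2: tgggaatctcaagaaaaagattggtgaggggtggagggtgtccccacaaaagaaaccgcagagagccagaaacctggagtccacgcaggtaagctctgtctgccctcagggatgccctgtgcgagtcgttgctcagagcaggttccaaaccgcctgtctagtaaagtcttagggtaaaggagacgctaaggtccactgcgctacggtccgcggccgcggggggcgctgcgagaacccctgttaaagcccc
The match in Wnt5b began 71 bases before the start, and the windows of Axin2 and Nkd2 held none of these letters. Of the 56 genes 37 had an entry, with 46 promoters among them, and 3 of the 46 (6.52%) held a match, in Wnt5b, Wnt11 and Dkk1. Of all 32851 promoters there, 7.48% held one. Among the genes without an entry are Wnt5a and Fzd2.

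Nkd2 encodes an antagonist of Dishevelled, the protein that passes the signal from Frizzled inward. It was at 0.262, 0.10 and 0.627 CPM in WT cultures and at 7.89, 1.18 and 7.40 CPM in K794Q cultures. All K794Q cultures were above all WT cultures, though K794Q B was much nearer to them than A and C. The means were 0.330 ± 0.270 CPM and 5.49 ± 3.74 CPM (SD, n = 3 each), for a log2 fold change of 3.96 (SE 0.95, edgeR adjusted p = 0.199). The summed counts were 13 in WT and 180 in K794Q cells, a ratio of 15.4 with a counting interval of 8.79 to 29.5. The rise passed both thresholds without any 1 of the 6 cultures, at between 3.58 and 4.83. Nkd1, its paralog and a more widely used readout of β-catenin, had 1 count in WT and 2 counts in K794Q cells. The Nkd2 gene lies at chr13:73818534-73847631 (GRCm38).

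Axin2 encodes a scaffold of the destruction complex and is itself a general target of β-catenin. It was at 1.14, 1.1 and 0.348 CPM in WT cultures and at 1.64, 1.97 and 4.90 CPM in K794Q cultures. The groups did not overlap, but A and B of K794Q lay close to A and B of WT, and the largest gap was between the C cultures. The log2 fold change was 1.73 (SE 0.68, edgeR adjusted p = 0.451), on means of 0.862 ± 0.445 CPM and 2.84 ± 1.80 CPM (SD, n = 3 each). Summed counts were 29 in WT and 94 in K794Q cells, a ratio of 3.61 with a counting interval of 2.36 to 5.68. It passed in 2 of the 6 fits with 1 culture left out. The call was lost without K794Q C (log2 fold change 1.07), WT C (1.35), WT B (1.93) or WT A (1.98). The Axin2 gene lies at chr11:108920349-108950783 (GRCm38).

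The partners of Axin2 in the destruction complex did not pass the thresholds. Apc was at 367, 361 and 290 CPM in WT and 350, 446 and 329 CPM in K794Q cultures (log2 fold change 0.14, SE 0.22, adjusted p = 0.901). Axin1, which is present without a Wnt signal, was at 51.2, 49.3 and 62.9 CPM in WT and 52.2, 49.7 and 52.9 CPM in K794Q cultures (log2 fold change -0.078, SE 0.16, adjusted p = 0.93). Both overlapped between the groups, in contrast to Axin2.

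Most of the other feedback targets did not pass the filter for the test. Of 9 listed (Axin2, Lef1, Tcf7, Rnf43, Znrf3, Nkd1, Nkd2, Apcdd1 and Dkk1), 3 were tested and 2 of these were higher in K794Q cells, where 3.48% of all tested genes were. The list was written with earlier results of these data known, and its count is not independent evidence of a direction. Znrf3, a ubiquitin ligase that removes Frizzled from the cell surface, was at 18.1, 17.6 and 34.5 CPM in WT and 19.5, 18.8 and 19.5 CPM in K794Q cultures (log2 fold change -0.28, SE 0.31, adjusted p = 0.855), so that 5 cultures were alike and WT C was higher. Its paralog Rnf43 had 1 count in WT and 2 counts in K794Q cells. Tcf7 had 1, 2 and 113 counts in WT and 2, 2 and 12 counts in K794Q cultures. Apcdd1 had 2, 5 and 84 counts in WT and 3, 1 and 22 counts in K794Q cultures. Both were left out by the filter with most of their counts in WT C. Their summed counts were lower in K794Q cells, with K794Q to WT ratios of 0.154 (counting interval 0.085 to 0.260) and 0.318 (0.197 to 0.497). Lef1, a TCF/LEF factor that is often induced by the pathway, had no count in WT cells and 2 counts in K794Q cells, and Dkk1, a secreted inhibitor of Lrp5 and Lrp6, had no count in any culture.

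Both remaining TCF genes were well expressed. Tcf7l2 was at 61.1, 57.3 and 61.5 CPM in WT and 64.7, 40.1 and 84.4 CPM in K794Q cultures, with overlapping groups (log2 fold change 0.073, SE 0.28, adjusted p = 0.968). Tcf7l1, which mostly represses, was at 71.9, 62.8 and 29.8 CPM in WT and 29.5, 23.5 and 51.3 CPM in K794Q cultures (log2 fold change -0.66, SE 0.43, adjusted p = 0.709). Here WT C lay among the K794Q cultures.

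**Figure D3:**
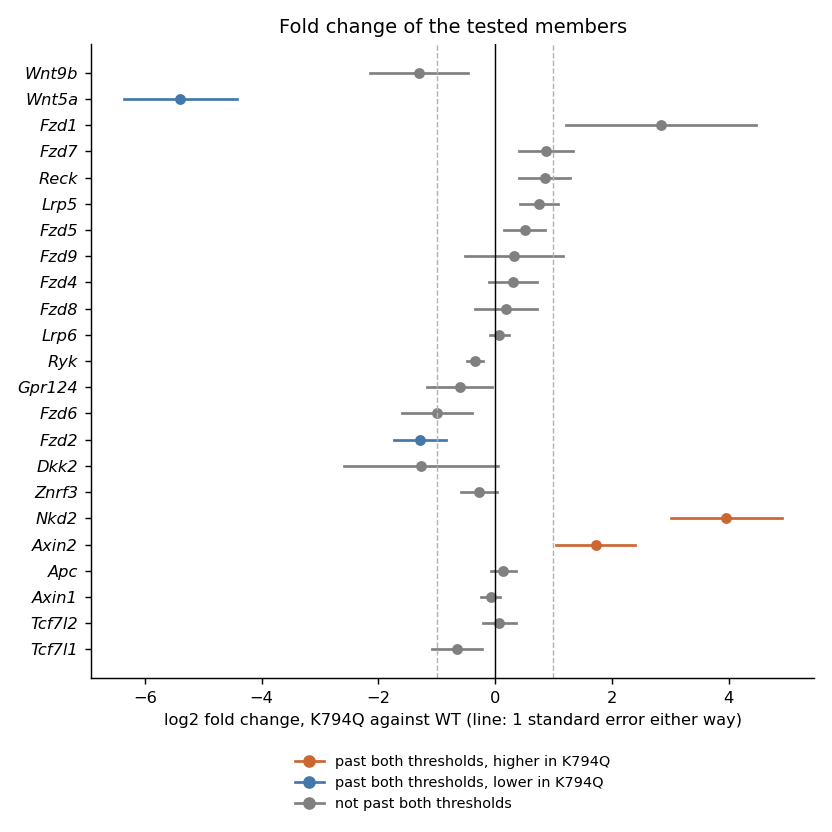
log2 fold change of K794Q against WT for the 23 tested Wnt pathway genes (points), with lines of 1 standard error either way and dashed lines at 2-fold. Wnt5a (-5.39) and Nkd2 (3.96) lie farthest from 0, and Axin2 (1.73) and Fzd2 (-1.28) also lie outside the dashed lines. Fzd1 (2.84), Wnt9b (-1.30) and Dkk2 (-1.27) lie outside them too without passing both thresholds. The lines of Fzd1 and Dkk2, whose cultures differed within a group, are the widest.

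Of the receptors, Fzd2 was lower in K794Q cells and the other 12 tested did not pass both thresholds. Fzd2, a receptor for Wnt5a among other ligands, lies at chr11:102604396-102608058 (GRCm38). It was at 7.87, 7.20 and 14.4 CPM in WT and at 4.04, 2.47 and 5.59 CPM in K794Q cultures. The groups did not overlap, although the gap between K794Q C and WT B was small. The means were 9.83 ± 3.99 CPM and 4.03 ± 1.56 CPM (SD, n = 3 each), for a log2 fold change of -1.28 (SE 0.44, edgeR adjusted p = 0.379). Of the 6 fits with 1 culture left out it passed in 3, and the call was lost without WT C (log2 fold change -0.88), K794Q A (-1.29) or K794Q B (-1.03).

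Fzd3 was close to absent, with 2, 2 and 12 counts in WT cultures and 0, 0 and 1 counts in K794Q cultures. Its groups did not overlap, and it was tested in the fit without a filter, where the log2 fold change was -3.36 (SE 1.30, edgeR adjusted p = 0.495). Fzd1 varied widely among K794Q cultures, at 2.21, 0 and 11.6 CPM, beside 0.0875, 0.600 and 1.18 CPM in WT cultures (log2 fold change 2.84, SE 1.62, adjusted p = 0.661). Without K794Q B it passed, at 3.42, and without K794Q C its log2 fold change was 0.80. Fzd10 had no count.

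Fzd7, of the same subfamily as Fzd1 and Fzd2, had a higher mean in K794Q cells. It was at 6.12, 7.5 and 15.4 CPM in WT and 17.3, 11.2 and 24.9 CPM in K794Q cultures (log2 fold change 0.88, SE 0.46, adjusted p = 0.62), and WT C lay within the K794Q range. Without WT C its log2 fold change was 1.40 and it passed both thresholds. Fzd6, a receptor tied to planar polarity, was at 102, 129 and 302 CPM in WT and 64.6, 45.5 and 157 CPM in K794Q cultures (log2 fold change -1.0, SE 0.60, adjusted p = 0.679), and in both groups culture C was the highest. Without K794Q C it passed, at -1.69, and without WT C its log2 fold change was -0.37.

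Fzd4, the receptor of the retinal vessel ligand Norrin, was at 79.3, 93.8 and 129 CPM in WT and 60.8, 137 and 177 CPM in K794Q cultures (log2 fold change 0.31, SE 0.41, adjusted p = 0.889). Fzd5 was at 22.7, 24.5 and 21.8 CPM in WT and 25.1, 51.3 and 21.8 CPM in K794Q cultures, so that K794Q B alone stood out (log2 fold change 0.51, SE 0.35, adjusted p = 0.733). Fzd8 was at 32.4, 39.9 and 23.0 CPM in WT and 20.7, 19.8 and 68.1 CPM in K794Q cultures, with K794Q C high (log2 fold change 0.19, SE 0.54, adjusted p = 0.953). Fzd9 was at 7.17, 8.90 and 1.95 CPM in WT and 6.74, 14.1 and 1.72 CPM in K794Q cultures, low in culture C of both groups (log2 fold change 0.33, SE 0.84, adjusted p = 0.949). These 4 receptors overlapped between the groups.

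Levels of different genes were compared per kb of exon (CPM divided by the summed exon length). In each of the 3 WT cultures Fzd6 was the receptor with the highest level, at 21.2, 26.9 and 62.8 CPM per kb. In K794Q cultures A and B it was Lrp5, at 20.9 and 40.7 CPM per kb, and in K794Q C it was Fzd6, at 32.5 CPM per kb. The mean order in WT cells after Fzd6 (36.9 CPM per kb) was Ryk (19.9), Lrp6 (17.7), Lrp5 (16.2), Fzd4 (15), Gpr124 (13.8), Fzd8 (5.31) and Fzd5 (3.32). In K794Q cells it was Lrp5 (27.2), Fzd4 (18.6), Lrp6 (18.6), Fzd6 (18.5), Ryk (15.7), Gpr124 (9.04), Fzd8 (6.06) and Fzd5 (4.73). The ranges over cultures of neighbours in these orders overlapped in many cases, as in WT cells for Lrp5 (14.1 to 17.6) and Lrp6 (17.4 to 17.8), whereas Gpr124 and Fzd8 in WT cells did not (7.82 to 25.4 against 3.85 to 6.68).

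As a share of all Frizzled transcripts per kb in a culture, Fzd6 took 43.8% to 64.4% in WT and 19.0% to 38.7% in K794Q cultures. Fzd2 took 3.35% to 4.45% in WT and 1.35% to 2.91% in K794Q cultures, and Fzd7 took 2.79% to 3.48% and 4.94% to 10.1%. The shares of these 3 genes did not overlap between the groups, nor did those of Fzd3 (at most 0.067% in WT and 0.008% in K794Q cultures). Those of Fzd4 did overlap (19.7% to 24.4% in WT and 23.8% to 40.8% in K794Q cultures). Shares of 1 total depend on each other, so these are not separate differences. The CPM of Fzd6 and of Fzd7 overlapped between the groups. No test was made of the shares, since 3 cultures against 3 allow no exact p below 0.1. The summed level was 48.4 to 97.5 CPM per kb in WT and 37.9 to 84.0 CPM per kb in K794Q cultures.

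**Figure D4:**
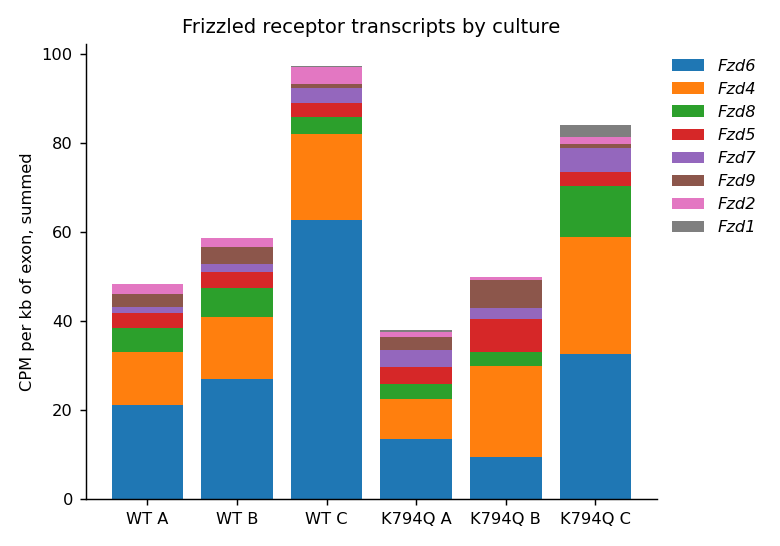
Stacked bars of Frizzled transcripts in CPM per kb of exon for each culture, from Fzd6 at the base upward. Fzd6 makes up the largest block in all WT cultures and in K794Q A and K794Q C, and Fzd4 does in K794Q B. With Fzd3, which is not drawn, the total is highest in WT C (97.5) and K794Q C (84.0).

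The co-receptors Lrp5 and Lrp6, which are needed for the β-catenin branch, were well expressed in every culture. Lrp5 was at 164, 171 and 137 CPM in WT and 204, 396 and 196 CPM in K794Q cultures. Every K794Q culture was higher, with K794Q B apart from the others, and the log2 fold change of 0.75 did not reach 2-fold (SE 0.32, adjusted p = 0.503). Without K794Q B it was 0.35. Lrp6 was at 244, 243 and 238 CPM in WT and 238, 245 and 278 CPM in K794Q cultures (log2 fold change 0.074, SE 0.16, adjusted p = 0.936).

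Ryk, a receptor for Wnt5a with an inactive kinase domain, was at 82.6, 91.7 and 96.7 CPM in WT and 72.2, 67.6 and 73.5 CPM in K794Q cultures. Its groups did not overlap, but the difference was small (log2 fold change -0.34, SE 0.14, adjusted p = 0.496). With Axin2, Nkd2 and Lrp5 higher and Wnt5a, Fzd2 and Ryk lower, 3 tested genes in each direction had groups that did not overlap. Over all tested genes 8.45% had all K794Q cultures above all WT cultures and 8.12% had them below. Ror2, the main receptor of Wnt5a in many tissues, had no count in any culture.

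Gpr124 and Reck form the receptor complex for Wnt7 ligands in brain endothelium. Gpr124 (the older symbol of Adgra2) was at 45.1, 46.3 and 147 CPM in WT and 62.9, 29.7 and 64.1 CPM in K794Q cultures (log2 fold change -0.61, SE 0.56, adjusted p = 0.815). Reck was at 4.11, 3.70 and 9.12 CPM in WT and 10.4, 7.90 and 12.3 CPM in K794Q cultures (log2 fold change 0.85, SE 0.43, adjusted p = 0.604). WT C was the highest WT culture for both. Without WT C, Reck passed both thresholds at 1.39, and Gpr124 had a log2 fold change of 0.21.

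Several Wnt pathway genes were highest in WT C, most of them at low levels, while Gpr124 was well expressed in every culture. Of the 30 genes with at least 20 counts over the cultures, 7 were at least 2-fold higher in WT C than in each of the other 5 cultures, where 3.75% of all genes with that many counts were. They are the ligand Wnt7a, the receptor Ror1, Gpr124, the inhibitors Dkk2, Sfrp2 and Apcdd1, and Tcf7, a TCF factor. Wnt7a, Sfrp2, Ror1 and Tcf7 reached 20 counts only through WT C, so the count of 7 is not independent of that limit. Tcf7 was at 7.87 CPM in WT C and at most 1.03 CPM elsewhere, Ror1 at 7.31 CPM against at most 0.774 CPM, and Apcdd1 at 5.85 CPM against at most 1.89 CPM. Sfrp2 had 30 counts in WT C and 1 count in all other cultures together, and Sfrp1, with 19 counts in all, had 18 of them in WT C. Dkk2 was at 0.437, 1.5 and 8.22 CPM in WT and 2.89, 1.28 and 0.0860 CPM in K794Q cultures (log2 fold change -1.27, SE 1.31, adjusted p = 0.843), and 0.56 without WT C. Dkk3, Dkk4, Sfrp4 and Sfrp5 had no count.

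**Figure D5:**
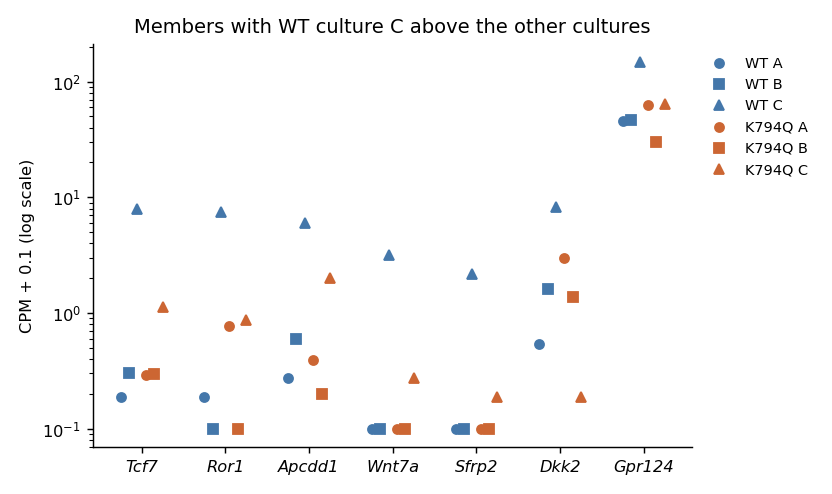
CPM + 0.1 on a log scale for the 7 Wnt pathway genes that were at least 2-fold higher in WT C (blue triangles) than in each other culture. Gpr124 is expressed in all cultures, while Wnt7a and Sfrp2 had counts in 2 cultures.

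Within the WT group, WT C was at least 2-fold above both other cultures in 6 of the 23 tested genes (Nkd2, Fzd6, Fzd7, Gpr124, Reck and Dkk2; 10.7% of all tested genes) and below them in 4 (Axin2, Wnt9b, Tcf7l1 and Fzd9; 10.8%). Within the K794Q group, culture B was below both others in 4 (Nkd2, Wnt5a, Fzd1 and Gpr124; 9.38%), and culture C was above both in 5 (Axin2, Wnt5a, Fzd1, Fzd6 and Fzd8; 3.14%). Among these, Wnt5a in K794Q cultures (2, 0 and 10 counts) and Nkd2 in WT cultures (3, 1 and 9 counts) rest on few counts. Some marker lists of other cell types also summed higher in WT C, and others did not. The 8 fibroblast or mesenchymal markers summed to 27.7 CPM in WT C and to between 0.787 and 3.65 CPM elsewhere, with Pdgfra at 16.4 CPM, while Col1a2 was at 3.16 CPM in K794Q B with no count in WT C, and Dcn, Lum and Thy1 had no count in any culture. The 4 smooth muscle markers summed to 3.34 CPM against at most 0.602 CPM, and the 4 neural markers to 7.31 CPM, of which Tubb3 made 7.17 CPM, against at most 0.790 CPM. The 4 blood markers summed to 37.6 CPM in WT C, 76.5 and 88.6 CPM in WT A and WT B, and 31.0 to 103 CPM in K794Q cultures. Cd68 made nearly all of these sums, at 37.2 CPM in WT C. The 5 epithelial markers summed to 0.279 CPM in WT C and to 0.592 CPM in K794Q B, the highest value. The 12 endothelial markers summed to 8077 to 9216 CPM in WT and to 6917 to 13155 CPM in K794Q cultures. Their part in the levels of the Wnt pathway genes was not tested, and in bulk RNA fewer cells of a type and less RNA per cell cannot be told apart.

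Of 98 further genes of the pathway (Gpr124 among them, by its current symbol), 62 were tested and 4 passed both thresholds, or 6.45%, with 1 higher and 3 lower. Over all tested genes 5.19% passed (3.48% higher and 1.71% lower), so that this share was near the background. Their median log2 fold change was -0.0094. With so few genes a list, the counts that follow are read against the same 5.19%. Of the 4, Abcb1a (5, 2 and 1 counts in K794Q cultures) and Gpc4 (0, 12 and 0) passed the filter only through the WT group. Nos2 (10, 14 and 0 counts in WT cultures) passed it only through the K794Q group. These counts are therefore not independent of the filter, and with at least 10 counts in every culture 1 of 52 passed. In the list of secretion and modulators 1 of 9 tested genes passed, Gpc4, a glypican that binds Wnt proteins at the cell surface. It was at 1.92, 2.40 and 30.6 CPM in WT and 0, 1.18 and 0 CPM in K794Q cultures (log2 fold change -4.88, SE 1.81, edgeR adjusted p = 0.419). WT C carried most of it, and the call was lost without that culture (log2 fold change -2.44), without K794Q A (-4.33) and without K794Q C (-4.28). It was also lost with the culture letter as a block (-4.74, adjusted p = 0.619, beside 0.0185 to 0.777 over all alternatives). DESeq2 gave no p for Gpc4.

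Sost, a secreted inhibitor that binds Lrp5 and Lrp6, was left out of the test by the filter, and it is named after its values were seen. It was at 50.7, 38.8 and 0.766 CPM in WT and 0.289, 0 and 0.602 CPM in K794Q cultures. The groups did not overlap, but WT C lay next to the K794Q cultures and far from WT A and WT B. In the fit without a filter its log2 fold change was -6.58 (SE 1.60, edgeR adjusted p = 0.233), and 6 genes of these lists passed both thresholds, with Sost and Lgr6 added.

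In the planar polarity and calcium branch 1 of 11 passed, Celsr1, an atypical cadherin of planar polarity. It was at 226, 231 and 112 CPM in WT and 15.1, 47.5 and 39.5 CPM in K794Q cultures, with no overlap (log2 fold change -2.48, SE 0.50, edgeR adjusted p = 0.147). The fall passed without any 1 culture, at between -2.78 and -2.12. Among general β-catenin targets 1 of 7 passed, Nos2, the inducible nitric oxide synthase, which answers to many signals besides Wnt. Nos2 was at 0.875, 1.40 and 0 CPM in WT and 31.0, 16.7 and 3.87 CPM in K794Q cultures (log2 fold change 4.53, SE 1.27, edgeR adjusted p = 0.273), and the rise passed without any 1 culture.

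Among Wnt targets of brain endothelium 1 of 6 passed, Abcb1a, the drug efflux pump P-glycoprotein of the blood-brain barrier. It was at 10.3, 10.8 and 15.5 CPM in WT and 0.481, 0.197 and 0.0860 CPM in K794Q cultures. The groups lay far apart, with a log2 fold change of -5.54 (SE 0.60, edgeR adjusted p = 0.0474), the only adjusted p at or under 0.05 in these lists by the quasi-likelihood test, where DESeq2 and the likelihood ratio test each gave 4. Over the alternatives the adjusted p of Abcb1a ran from 1.75e-13 to 0.319. How reads shared with its close paralog Abcb1b were counted was not tested. The fall passed both thresholds without any 1 culture, at between -6.35 and -5.12. In the lists of cytoplasmic transduction and nuclear cofactors 0 of 18 and 0 of 11 tested genes passed both thresholds in edgeR's quasi-likelihood test or DESeq2, and by each tool 1 and 2 genes had an unadjusted p of at most 0.05.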

How the data were processed

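RNA of 3 WT and 3 K794Q cultures of eEnd2 cells was sequenced. Per the labels' processing notes, which list bcl2fastq 2.20.0, STAR 2.7.4a, HTSeq 0.9.1, edgeR 3.38.4 and the mm10 build, and the paper, the authors aligned the reads to the mouse genome with STAR and deposited counts per gene symbol, not normalized. The strand setting of the counting is not given in the sources used here. The 6 count columns name their cultures, and 0 others held values of a sample.

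The whole table was fitted in R 4.3.3 with edgeR 4.0.16 (filterByExpr, TMM, glmQLFit and glmQLFTest, two-sided), with no covariate. Standard errors (SE) were taken as the absolute log2 fold change over √F. Ratios of summed counts have exact binomial intervals at 95%. Alternatives were no filter, at least 10 counts in every culture, RLE, DESeq2 1.42.0, the likelihood ratio test, the culture letter as a block, each culture left out in turn, and WT C and K794Q B left out together. Positions and exon lengths came from GENCODE M21 (GRCm38), promoters from RefSeq. Tables and figures used Python 3.11.15, pandas 2.3.3 and matplotlib 3.10.9.

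The genes, lists and tests were chosen with earlier results of these data known. Values in every culture are given for genes past both thresholds, genes whose groups did not overlap with means at least 2-fold apart, and genes with a group mean of at least 5 CPM. From the other lists the genes past both thresholds are named.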

Additional observations from a re-analysis of the deposited data

How the results depend on the processing

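Wnt5a and Nkd2 kept their direction and passed both thresholds in every fit that held them, with adjusted p between 4.19e-08 and 0.496 for Wnt5a and between 0.00297 and 0.659 for Nkd2. Axin2 and Fzd2 also kept their direction, but they did not pass both thresholds in every fit. RLE normalization, DESeq2 and the likelihood ratio test kept the same 4 calls. At an adjusted p of at most 0.05 the quasi-likelihood test gave 0 calls among the Wnt pathway genes, 21 among all genes and 1 in the further lists, DESeq2 gave 2, 477 and 4, and the likelihood ratio test gave 2, 318 and 4. With at least 10 counts in every culture, 17 of the Wnt pathway genes were tested and 1 passed (Fzd2). In the further lists 1 of 52 tested genes passed, and over all genes 425 of 10541 did. Without a filter the counts were 6 (with Wnt5b and Fzd3), 916 among all genes and 6 in the further lists. With 1 culture left out the counts were 3 to 4 among the Wnt pathway genes, 501 to 992 among all genes (992 without WT C, 942 without K794Q B) and 4 to 7 in the further lists (7 without WT C). Without WT C and K794Q B together they were 6, 1661 and 11.

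The labels do not say that a culture letter marks a shared batch, and the check over the letters was mixed. Deviations of same-lettered cultures from their group means correlated at 0.120, 0.0558 and 0.109, not all of them over 0.1. K794Q B and K794Q C correlated best with the WT culture of their own letter, and K794Q A correlated best with WT B. With the letter as a block 4 Wnt pathway genes passed, 3 of them shared with the fit without it (Axin2 was lost and Fzd6 gained), 571 of all genes and 3 in the further lists did (Gpc4 was lost), and Fzd8 changed sign to -0.059.

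Some genes that had not passed changed sign with the cultures used, Dkk2 (-1.27 with all cultures) and Gpr124 (-0.61) among them. Without WT C and K794Q B the log2 fold changes were -0.085 for Apc, 0.081 for Axin1, -0.92 for Fzd9, 0.49 for Gpr124, 0.62 for Dkk2 and 0.15 for Znrf3. With 1 culture left out they ran from -0.15 to 0.051 for Axin1, -0.19 to 0.32 for Tcf7l2, -0.027 to 0.64 for Fzd4, -0.65 to 0.49 for Fzd8, -0.49 to 0.80 for Fzd9, -0.89 to 0.21 for Gpr124, -2.33 to 0.56 for Dkk2 and -0.45 to 0.12 for Znrf3. Where the cultures left out do not show it, the cause was not tested. Depth limits what can be said of 11 of the 56 genes, which held between 1 and 10 counts in all.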

Other observations

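Bcl9, a cofactor that ties β-catenin to the transcription machinery, lay just short of the 2-fold threshold and is named here after its values were seen. It was at 42.4, 37.0 and 43.8 CPM in WT and 20.6, 19.4 and 22.3 CPM in K794Q cultures, with little spread within either group (log2 fold change -0.98, SE 0.17, edgeR adjusted p = 0.103). Csnk1e, a kinase of Dishevelled, was at 53.4, 52.8 and 77.9 CPM in WT and 28.7, 48.4 and 33.9 CPM in K794Q cultures (log2 fold change -0.73, SE 0.27, adjusted p = 0.419), also chosen after its values were seen. Wls, which carries Wnt proteins to the cell surface, was at 225, 254 and 244 CPM in WT and 169, 181 and 200 CPM in K794Q cultures (log2 fold change -0.39, SE 0.17, adjusted p = 0.496). All 3 missed the 2-fold threshold, and their groups did not overlap. Wls too was named outside the rule of genes past both thresholds. Of the 62 tested genes of the further lists, 8 had all K794Q cultures below all WT cultures and 2 had them above. Over all tested genes these shares were 8.12% and 8.45%. Among these list genes, Cdc73 was lower (log2 fold change -0.598, SE 0.175, edgeR adjusted p = 0.292) and Porcn higher (0.82, SE 0.43, edgeR adjusted p = 0.616). Vangl2, of the planar polarity list, was at 17.6, 19.1 and 22.7 CPM in WT and 10.3, 2.27 and 16.3 CPM in K794Q cultures. Its log2 fold change was -1.04 (SE 0.64, edgeR adjusted p = 0.689), past 2-fold without passing both thresholds.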
